A study of Mus musculus with 32 samples.

Results

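The comparison set GAS muscle (gastrocnemius, the large muscle of the calf) at 21 d post denervation against GAS muscle at 0 d, with 4 samples at each time. These 8 samples, chosen by their time label alone, are part of a time course of 32 samples at 8 time points. All of them are labelled as C57BL/6 mice with sciatic nerve transection, the 0 d samples included, and no other allele or agent is named for them. The study's methods describe young adult male C57BL/6J mice in which a piece of the left sciatic nerve was removed, and sham mice whose nerve was left whole. The study names the sham, nondenervated animals as its comparison group, whereas the labels give nerve transection for the 0 d samples, so 0 d is used here as the name of the control group. The labels give no age. The 4 columns of 0 d in the table carry a C and no day, and they were assigned to 0 d because it was the single time label left. The study calls its samples biologically independent, and the labels do not tie them to single animals, so the p-values below measure the spread between samples. In whole muscle, fewer cells of a type and less RNA per cell cannot be told apart.

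RNA was sequenced from whole tissue, and each gene has 1 FPKM value per sample (fragments per exon length and per sequencing depth). Of the 33397 genes in the table, 17883 reached an FPKM of 0.1 in at least 4 of the 8 samples and were tested. Of these, 271 passed through the 21 d samples alone and 90 through the 0 d samples alone, each below that value in all samples of the other time, so that passing already required a difference. The values were turned back into 14916104 to 15864389 fragments per sample at 0 d and 16042075 to 17394746 at 21 d. The extraction protocol in the labels names retina, not muscle. The 10 muscle fibre markers summed to 40308 to 43093 FPKM per sample at 0 d and to 27583 to 30158 at 21 d, while the 9 photoreceptor genes in the table summed to 0.131 to 0.334 and to 0.378 to 0.516. Mitochondrially encoded genes took 14.5% to 18.2% of the fragments at 0 d and 10.3% to 12% at 21 d. The samples of 0 d lay in pairs, replicates 1 and 2 apart from 3 and 4, along the second principal component (4.6% of the variance), whereas the first component (80.8%) separated the times.

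A gene was called changed at a Benjamini-Hochberg adjusted p under 0.05 from limma on log2(FPKM + 1) and a change of at least 1.5-fold, and every fold change below is on that scale unless a ratio of FPKM is named. At 21 d 2632 genes were upregulated (14.7% of those tested) and 875 were downregulated (4.89%), together 19.6%. The samples of the groups did not overlap in 2579 of the upregulated and 843 of the downregulated genes, and over all genes tested they did not overlap in 51.5%. The median log2 fold change of all genes tested was 0.16 with the deposited values. It was 0.01 under median-ratio scaling, which sets the typical gene to no change. With that scaling 1386 genes were upregulated (7.75%) and 1515 downregulated (8.47%), so that upregulated genes made up 47.8% of the calls in place of 75.0%. All of these 1386 were among the 2632, and all 875 downregulated genes kept their call. Counts for each gene group are therefore given as deposited and after median-ratio scaling. The share of all genes called also depended on other choices, with 25.3% upregulated and 7.76% downregulated at pseudocount 0.1, 26.4% and 8.12% with limma-voom on the recovered fragments, 27.4% and 5.22% after rescaling to TPM (which gives every sample the same sum), and 8.31% and 7.97% under quantile normalization. Rescaling to TPM also raised all values against the pseudocount of 1, so that it acts in part like a smaller pseudocount.

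A muscle fibre that has lost its nerve is electrically silent. Innervated adult fibres keep acetylcholine receptors almost entirely under the nerve terminal and express the adult receptor, with an epsilon subunit. A denervated fibre is known to return to embryonic habits: it spreads receptors with a gamma subunit over its whole surface, turns on the myogenic factors that built it, and loses protein faster than it makes it. Myogenic factors bind E-boxes, the hexamer CANNTG, often as CAGCTG. The 200 bases before the RefSeq transcription start are shown for receptor subunits and partners with very different responses, with E-boxes in capitals (GRCm38.p6, 5′ to 3′ on the strand of the gene), because the text below sets these genes side by side.
Chrna1: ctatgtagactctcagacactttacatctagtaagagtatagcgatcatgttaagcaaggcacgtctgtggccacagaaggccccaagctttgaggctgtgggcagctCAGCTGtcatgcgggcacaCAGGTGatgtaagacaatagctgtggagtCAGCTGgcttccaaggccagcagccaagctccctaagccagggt
Chrng: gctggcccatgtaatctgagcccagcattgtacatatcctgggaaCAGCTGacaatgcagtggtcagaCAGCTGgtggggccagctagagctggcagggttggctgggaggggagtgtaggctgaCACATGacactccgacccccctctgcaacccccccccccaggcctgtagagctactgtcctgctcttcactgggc
Chrnb1: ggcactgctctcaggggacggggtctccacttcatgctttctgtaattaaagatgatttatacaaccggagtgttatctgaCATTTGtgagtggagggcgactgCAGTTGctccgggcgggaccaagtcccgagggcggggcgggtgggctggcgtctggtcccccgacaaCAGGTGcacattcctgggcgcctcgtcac
Chrne: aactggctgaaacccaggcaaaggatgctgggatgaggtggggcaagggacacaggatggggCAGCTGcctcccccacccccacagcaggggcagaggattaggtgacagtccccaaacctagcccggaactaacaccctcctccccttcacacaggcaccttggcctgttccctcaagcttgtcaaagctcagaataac
Musk: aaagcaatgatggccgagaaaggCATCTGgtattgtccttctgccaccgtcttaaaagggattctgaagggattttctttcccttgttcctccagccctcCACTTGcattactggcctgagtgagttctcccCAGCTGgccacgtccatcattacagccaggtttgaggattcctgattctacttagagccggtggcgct
Myog: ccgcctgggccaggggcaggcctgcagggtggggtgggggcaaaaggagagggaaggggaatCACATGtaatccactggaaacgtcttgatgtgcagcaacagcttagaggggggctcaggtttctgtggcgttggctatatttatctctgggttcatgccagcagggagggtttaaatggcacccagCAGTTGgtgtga

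The windows lie at chr2:73580339-73580538 (Chrna1, minus strand), chr1:87205611-87205810 (Chrng, plus), chr11:69795938-69796137 (Chrnb1, minus), chr11:70619195-70619394 (Chrne, minus), chr4:58285762-58285961 (Musk, plus) and chr1:134289804-134290003 (Myog, plus). Those of Chrna1, Chrng, Chrnb1 and Musk hold 3 E-boxes each, that of Myog 2 and that of Chrne 1. CANNTG reads the same on both strands, and among 32851 windows of this length 7.49% hold at least 3 of them and 58.2% at least 1. The form CAGCTG occurs 2 times in Chrna1 and in Chrng, which 0.916% of all windows match or exceed. It occurs once each in Chrne and Musk, and 10.9% of all windows hold it at least once. A match of letters is a description and no evidence of binding.

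Several genes of the neuromuscular junction were upregulated, among them 4 of the receptor subunits. Of 19 junction genes tested, 8 rose and 2 fell, and their median log2 fold change was 0.45 beside 0.16 for all genes (7 rose and 2 fell after median-ratio scaling). Chrng, the embryonic gamma subunit, had 0.0156, 0.0966, 0 and 0.0454 FPKM at 0 d and 44.2, 46.1, 49.3 and 60.1 at 21 d. All samples of 21 d thus lay far above a group that was close to 0 (log2 fold change 5.61, standard error 0.09). Chrng passed the filter on low values through the 21 d samples alone, and limma without a filter gave adjusted p = 1.3e-08. Chrna1, the alpha subunit that binds acetylcholine (chr2:73563215-73580338), had 4.11, 3.02, 3.41 and 3.68 FPKM and then 185, 190, 200 and 222 (log2 fold change 5.46, standard error 0.08). Chrnd, the delta subunit, went from 0.895 ± 0.0853 (SD, n = 4) to 119 ± 11.7 FPKM (log2 fold change 5.99). The order of the subunits by size depended on the pseudocount, and with pseudocount 0.1 the log2 fold change was 8.53 for Chrng and 6.91 for Chrnd. Chrnb1, the beta subunit, started higher, at 10.7 to 12.5 FPKM, and reached 91.1 to 109 (log2 fold change 3.05). The groups overlapped for Chrne, the adult epsilon subunit, with 6.72, 6.38, 8.30 and 9.06 FPKM at 0 d and 8.53, 9.51, 10.9 and 11.7 at 21 d, and it was not called (log2 fold change 0.38, adjusted p = 0.023). The level of Chrng per exon length was thus above that of Chrne in every 21 d sample and below it in every 0 d sample.

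The receptor's organisers moved less evenly. Musk, the kinase that clusters receptors, rose from 7.84 to 12 FPKM at 0 d to 51.9 to 68.3 (log2 fold change 2.49, adjusted p = 3.5e-07), and its co-receptor Lrp4 from 1.46 to 2.02 to 2.96 to 3.36 (0.63, or 0.42 and no call after median-ratio scaling). Dok7, which activates Musk, had a log2 fold change of 0.45, Agrn, the nerve- and muscle-made ligand, 0.23, and Rapsn, the receptor's scaffold, 0.39 with a standard error of 0.38, and none was called. Rapsn ranged from 0.892 to 7.31 FPKM among the 0 d samples alone. Ncam1, an adhesion molecule of denervated fibres, rose by 2.54 on the log2 scale, with 0.379 to 0.577 FPKM at 0 d and 6.82 to 8.50 at 21 d. The genes that clear the transmitter fell. Ache, acetylcholinesterase, had 6.11, 5.78, 5.77 and 6.12 FPKM at 0 d and 2.31, 2.46, 2.05 and 2.20 at 21 d, with no overlap (log2 fold change -1.09, adjusted p = 4.4e-07). Its collagen tail Colq fell by 0.63 on the log2 scale, and lost its call without replicate 3 or 4 of 0 d.

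**Figure D1:**
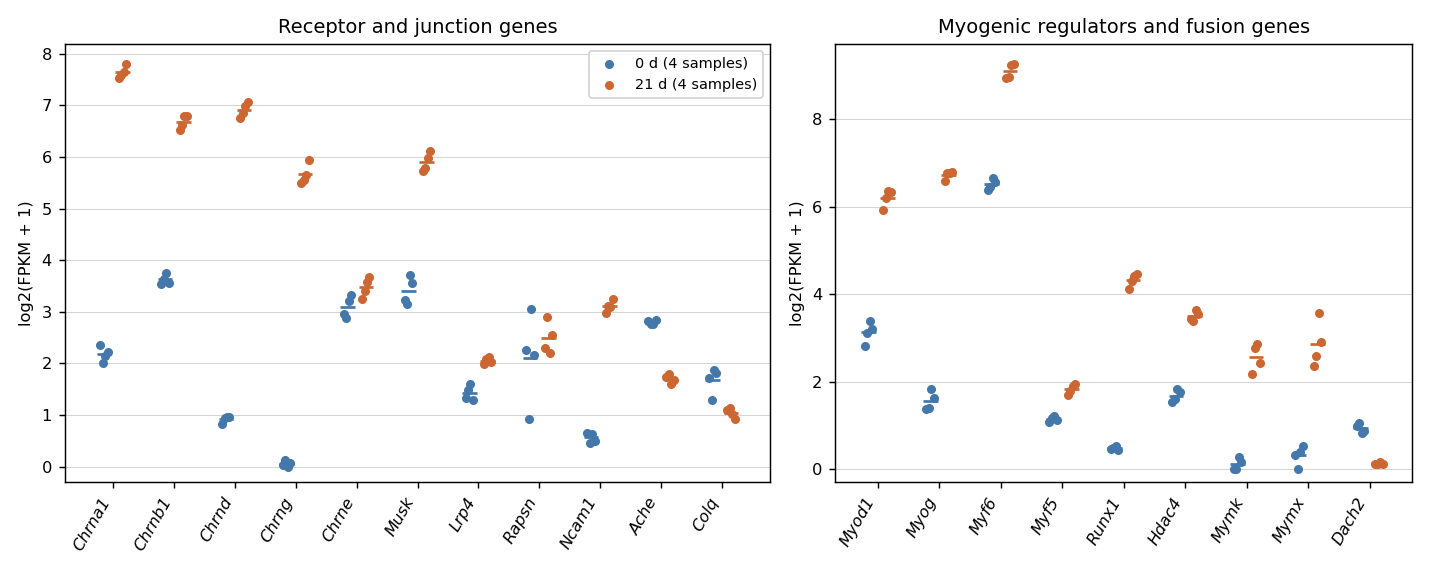
FPKM of junction genes and of myogenic transcription factors in each of the 4 samples at 0 d and the 4 at 21 d, as log2(FPKM + 1), with a bar at the group mean of that scale. The samples of Chrng, Chrna1, Chrnd and Myog at 21 d sit far above those of 0 d, the samples of Chrne overlap in range, and Ache lies lower at 21 d.

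The myogenic factors rose together with several partners. In the list of myogenic and activity-linked regulators, 10 of 21 genes rose and 2 fell, with a median of 0.47 (9 and 4 after median-ratio scaling). Myog, myogenin, had 1.61, 1.61, 2.59 and 2.06 FPKM at 0 d and 94.7, 108, 108 and 110 at 21 d (log2 fold change 5.17, standard error 0.10, adjusted p = 9.1e-10). Myod1 rose from 7.88 ± 1.45 to 73.3 ± 9.68 FPKM (SD, n = 4), and Myf6, the most abundant factor at 0 d on this length-corrected scale, from 82.2 to 99.7 up to 493 to 613. Myf5 rose from 1.12 to 1.32 FPKM to 2.23 to 2.87, a call that was lost after median-ratio scaling (log2 fold change 0.68 and 0.49). Runx1, a factor that keeps denervated fibres from excess wasting, rose from 0.394 ± 0.0364 to 19.1 ± 2.1 FPKM. Both genes of the fusion machinery, Mymk and Mymx, were near 0 at 0 d, with at most 0.217 and 0.429 FPKM, and lay between 3.54 and 6.22 and between 4.08 and 11 FPKM at 21 d. Hdac4, which links inactivity to gene repression, rose by 1.82 on the log2 scale, while Dach2, a repressor of Myog, had 0.973, 1.09, 0.777 and 0.824 FPKM at 0 d and 0.0757, 0.0874, 0.121 and 0.0884 at 21 d (log2 fold change -0.81, ratio of mean FPKM 0.102). Ppargc1a, the coactivator of mitochondrial genes, fell by 0.73 on the log2 scale, with 5.70 to 8.89 FPKM at 0 d and 3.78 to 4.06 at 21 d. Hdac5 and Hdac9, relatives of Hdac4, had log2 fold changes of -0.45 and -0.30 and were not called as deposited, and Hdac5 was called after median-ratio scaling (-0.71). Sdc4 and Myf5 rose among 10 satellite cell markers, and Pax7, the gene that defines these stem cells, had 0.526 to 0.720 FPKM at 0 d and 0.392 to 0.725 at 21 d.

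The contractile apparatus shifted in both directions. In the adult fast fibre list 6 of 15 genes fell and 2 rose, with a median log2 fold change of -0.53 (10 and 1 after median-ratio scaling). Rescaling to TPM left 4 lower and 3 higher (median -0.39), and quantile normalization gave the same counts (median -0.18). Myh4, the fastest myosin heavy chain, had 4879, 4412, 6504 and 6331 FPKM at 0 d and 2712, 3076, 3492 and 2946 at 21 d, with no overlap (log2 fold change -0.84, adjusted p = 0.0011). Myh1, the next slower chain, moved the other way, from 501 ± 150 to 854 ± 98.6 FPKM (SD, n = 4), but its call was lost after median-ratio scaling (0.81 and 0.51). These genes are neighbours of near-identical sequence, and reads may have been split between them. Mybpc2, fast myosin-binding protein C, had the largest fall of the list, from 1030, 890, 1208 and 1263 FPKM to 91.4, 74.9, 55.1 and 51.9 (log2 fold change -4.01, adjusted p = 1.2e-07), and its exons overlap an antisense gene by 192 bases. Tpm1 fell from 2442 ± 181 to 1353 ± 21.5 FPKM and Tnni2, Tnnt3 and Casq1 by 0.60 to 0.74 on the log2 scale. With quantile normalization Tnnt3 stood at 0.00, and with median-ratio scaling at -0.90, and its call was lost without replicate 1 of 0 d or replicate 3 or 4 of 21 d. Actn3, the fast alpha-actinin, rose from 1678 to 2117 FPKM to 3203 to 3618 (log2 fold change 0.89), and Acta1, skeletal actin, was lower in every 21 d sample (9020 to 10571 against 11652 to 14741) without reaching 1.5-fold as deposited (log2 fold change -0.52, and -0.81 with a call after median-ratio scaling).

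Developmental isoforms rose while the slow fibre genes split. Of 7 genes of the developmental sarcomere 5 rose and 1 fell, with a median of 2.21 (5 and 2 after median-ratio scaling, median 2.06). Myh3, embryonic myosin, went from 0.996, 1.22, 0.573 and 0.426 FPKM to 24.4, 25.9, 26.7 and 34.9 (log2 fold change 4.02). Myh8, perinatal myosin, went from at most 0.323 FPKM to between 4.05 and 5.69, Myl4, the embryonic and atrial light chain, from 2.19 ± 0.508 to 20.8 ± 1.73, and Tnnt2, cardiac and embryonic troponin T, from 0.468 ± 0.149 to 10.2 ± 0.813. These levels stayed small beside adult Myh4, at 3057 ± 327 FPKM at 21 d. Actc1, cardiac actin, fell in the same list, from 30.0 to 64.1 FPKM to 21 to 27.3 (log2 fold change -1.06). In the slow and cardiac list 3 of 16 genes rose and 3 fell, with a median of -0.11 (1 and 5 after median-ratio scaling, and 5 and 4 with a median of 0.04 after rescaling to TPM). The median was 0.08 without replicate 1 of 0 d. Slow fibre genes differed between the 0 d pairs: Myl2, slow myosin light chain, had 293 and 188 FPKM in replicates 1 and 2 and 87.3 and 82.8 in replicates 3 and 4, and the 21 d values of 78.9 to 143 overlapped them. This split was not confined to 0 d. At 21 d Myh7, slow myosin heavy chain, had 28.9 and 29.0 FPKM in replicates 1 and 2 and 17.7 and 13.1 in replicates 3 and 4. Tnnt1, slow troponin T, had 141, 82.5, 59.5 and 49.0 FPKM at 0 d and 142 to 170 at 21 d, and lost its call after median-ratio scaling, whereas Myl3, another slow light chain, fell by 1.33 on the log2 scale with no overlap (119 to 313 and 59.4 to 92.7 FPKM).

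**Figure D2:**
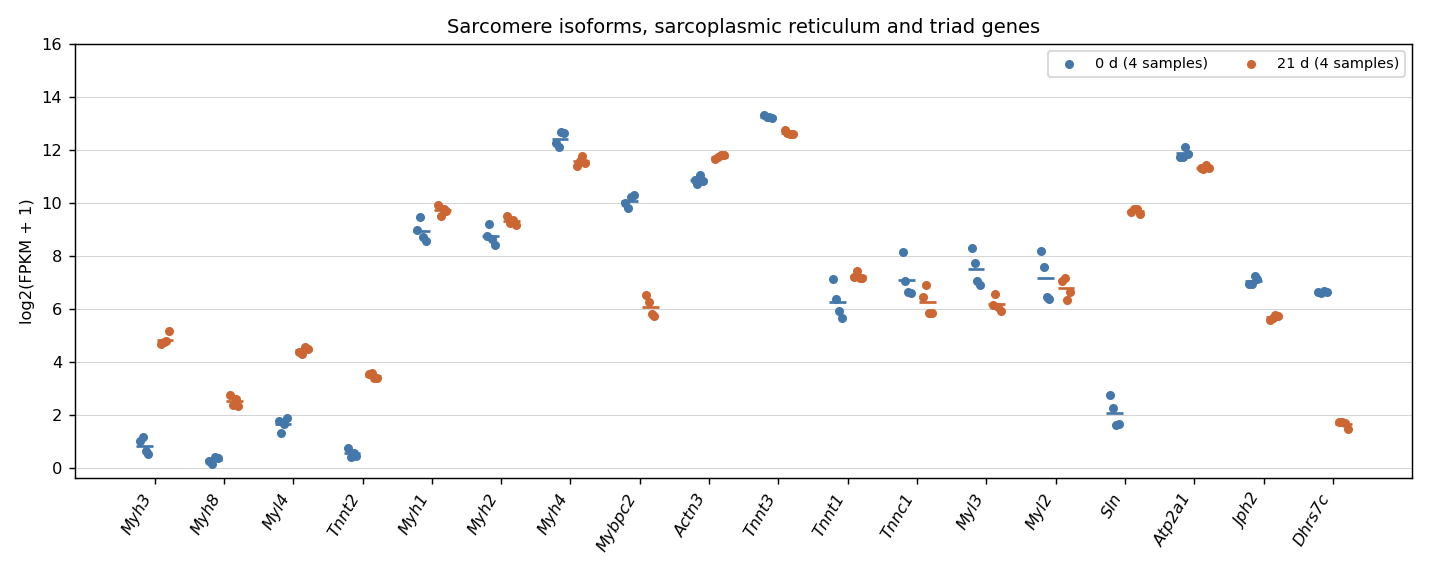
FPKM of fast, slow and developmental sarcomere genes in each sample at 0 d and 21 d, as log2(FPKM + 1), with a bar at the group mean. Myh3, Myh8, Myl4 and Tnnt2 lie higher at 21 d without overlap, Mybpc2 lies lower, and the slow fibre genes spread widely among the 0 d samples.

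Structural stress genes held several of the largest upregulations at 21 d. In the list of titin-linked ankyrin repeat and stress-responsive structural genes 14 of 17 rose and none fell by the limma criteria (13 after median-ratio scaling), with a median of 1.27. Ankrd1, a titin-binding ankyrin repeat protein of stretched and denervated muscle (chr19:36111961-36120099), had 4.59, 2.79, 3.02 and 4.95 FPKM at 0 d and 518, 542, 538 and 564 at 21 d (log2 fold change 6.83, standard error 0.14). Its relative Ankrd2 rose by 1.67 on the log2 scale. The simple-epithelial keratin pair Krt18 and Krt8, partners in a filament, rose together: Krt18 from 0.497, 0.420, 0.821 and 0.175 FPKM to 277, 246, 281 and 237, and Krt8 from at most 0.0643 to 84.8, 79.8, 116 and 91.4. Krt8 passed the filter through 21 d alone. It was at 3 fragments or fewer in every 0 d sample, so its rise was at least 933-fold against that floor, and 101 bases of it overlap an antisense gene. Krt19, a further keratin, had 0.645 to 1.54 FPKM at 0 d and 0.279 to 0.839 at 21 d and was not called. Igfn1, which binds the Z-disc, rose from 1.80 to 7.29 FPKM to 302 to 382, Csrp3, muscle LIM protein, from 22.3 to 66.3 to 316 to 433, and Des, desmin, from 562 to 696 to 1043 to 1157, the last without a call after median-ratio scaling (log2 fold change 0.83 and 0.53). Small heat-shock proteins that guard the sarcomere rose with them, Hspb8 from 230 ± 24.8 to 1774 ± 168 FPKM and Hspb7, Hspb1 and Cryab by 2.17, 1.27 and 0.89 on the log2 scale.

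Sarcolipin had the largest change of any gene called on the log2(FPKM + 1) scale, while no other member of its list was called as deposited. With pseudocount 0.1 the keratins Krt8 and Krt18 and the receptor subunit Chrng ranked above Sln, with log2 fold changes of 9.46, 8.94 and 8.53 against 7.99. Sln (chr9:53850164-53854560), a small membrane peptide that slows the calcium pump SERCA, had 5.81, 3.81, 2.04 and 2.15 FPKM at 0 d and 809, 868, 874 and 763 at 21 d. The log2 fold change was 7.62 with a standard error of 0.23 (adjusted p = 8.4e-09). Of 6 SERCA genes tested it was the single riser, and no member fell as deposited (median -0.02). Atp2a1, the fast fibre pump, had 3438 to 4404 FPKM at 0 d and 2457 to 2774 at 21 d, a log2 fold change of -0.53 that passed 1.5-fold only after median-ratio scaling (-0.83). Mrln, which acts on the same pump, had a log2 fold change of -0.18.

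Excitation-contraction coupling and the surface channels changed member by member. Of 18 coupling genes 4 rose and 6 fell (2 and 8 after median-ratio scaling), with a median of -0.25. Dhrs7c, an enzyme of the sarcoplasmic reticulum (chr11:67798187-67816002), had the largest fall on the log2(FPKM + 1) scale of any gene called, from 99.6, 95.6, 102 and 98.4 FPKM to 2.36, 2.36, 2.23 and 1.76 (log2 fold change -4.98, standard error 0.07). With pseudocount 0.1 Odf3l2, described below, fell further (-6.93 against -5.45 for Dhrs7c). The junctophilins, which hold the surface and reticulum membranes together, fell as well, Jph2 from 122 to 150 FPKM to 46.8 to 54.0 and Jph1 by 0.81 on the log2 scale. Subunits of the voltage sensor rose, Cacng1 from 170 ± 23.8 to 395 ± 19.7 FPKM and Cacna1s and Cacnb1 by 0.70 and 0.65 on the log2 scale, the latter pair without a call after median-ratio scaling (0.41 and 0.36). Bin1, which shapes the transverse tubule, rose from 115 to 131 FPKM to 249 to 260, and Ryr1, the release channel, had 80.8 to 138 FPKM at 0 d and 88.2 to 109 at 21 d.

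Of 21 sarcolemmal channels and pumps 6 rose and 7 fell (5 and 8 after median-ratio scaling), with a median of -0.05. Scn4a, the sodium channel of adult muscle, was lower in every 21 d sample, at 43.6 to 49.9 FPKM against 52.0 to 68.8, with a log2 fold change of -0.35 that was called only after median-ratio scaling (-0.64). Kcnn3, a calcium-activated potassium channel of denervated fibres, rose from 0.592 ± 0.174 to 30.1 ± 3.39 FPKM. Clcn1, the chloride channel that sets the resting conductance, fell from 35.2, 40.0, 44.5 and 41.0 FPKM to 14.4, 14, 15.5 and 15.8 (log2 fold change -1.36), and the potassium channels Kcna7, Kcnc1 and Kcnj12 fell by 2.73, 1.83 and 1.53 on the log2 scale.

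Most genes of the glycolysis and glycogen list were downregulated. In the list of glycolysis and glycogen 16 of 26 genes fell and 1 rose, with a median of -0.92 beside 0.16 for all genes (21 and 1 after median-ratio scaling, median -1.22). Eno3, muscle enolase, had 2681, 2593, 2561 and 2587 FPKM at 0 d and 673, 674, 623 and 604 at 21 d (log2 fold change -2.02, standard error 0.07, adjusted p = 2.5e-08). Fbp2, muscle fructose bisphosphatase, and Gpd1, of the glycerol phosphate shuttle, fell further on the log2 scale, by 2.84 and 2.38, from lower levels. Pfkm, Ldha and Tpi1 fell by 1.5, 1.71 and 1.82, while the isoforms less bound to muscle, Eno1 and Hk1, had log2 fold changes of 0.21 and 0.19 and were not called. Gbe1, the branching enzyme of glycogen, was the member that rose, from 13.2 to 17.6 FPKM to 29.7 to 34.6. Slc16a3, which exports lactate, fell from 53 ± 2.65 to 2.77 ± 0.535 FPKM, and Ckm, muscle creatine kinase, from 3243 ± 83.5 to 972 ± 84.4, with an antisense overlap of 451 bases.

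Several mitochondrial genes of the nuclear and the mitochondrial genome fell, and how many passed 1.5-fold depended on the scaling. Of 32 genes of fatty acid oxidation and the TCA cycle 15 fell and none rose by the limma criteria (25 and 0 after median-ratio scaling, 10 and 0 with TPM), with a median of -0.57. Idh2, mitochondrial isocitrate dehydrogenase, had 133, 141, 128 and 108 FPKM at 0 d and 35.6, 36.3, 33.9 and 30.5 at 21 d (log2 fold change -1.87), and Acadm, for medium-chain fatty acids, fell from 113 to 134 FPKM to 45.5 to 51.8. Of 35 nuclear genes of the respiratory chain 8 fell and none rose, with a median of -0.45, while 27 fell after median-ratio scaling (median -0.75), 15 under quantile normalization (median -0.55) and 4 after rescaling to TPM (median -0.31). Cox7a1, the muscle form of a cytochrome oxidase subunit, was the leading member at 230 ± 25.6 and 93.8 ± 13.7 FPKM. In the mitochondrial genome 10 of 13 genes fell as deposited (median -0.65), 12 after median-ratio scaling, 5 after rescaling to TPM (median -0.51) and 5 under quantile normalization (median -0.36), with mt-Nd2 going from 11373 to 14507 FPKM to 5959 to 6995 (log2 fold change -1.09) and mt-Co1 from 39123 to 49759 to 27804 to 33498 (-0.66). mt-Nd5 fell by 0.63 as deposited but stood at 0.13 after quantile normalization, and its call was lost without replicate 4 of 0 d. Mb, the oxygen store myoglobin, and Car3, carbonic anhydrase of slow fibres, went against this direction, Mb from 1805 ± 439 to 4656 ± 91.4 FPKM and Car3 from 1079 ± 49.2 to 5358 ± 351, while Mb overlaps an antisense gene by 412 bases.

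**Figure D3:**
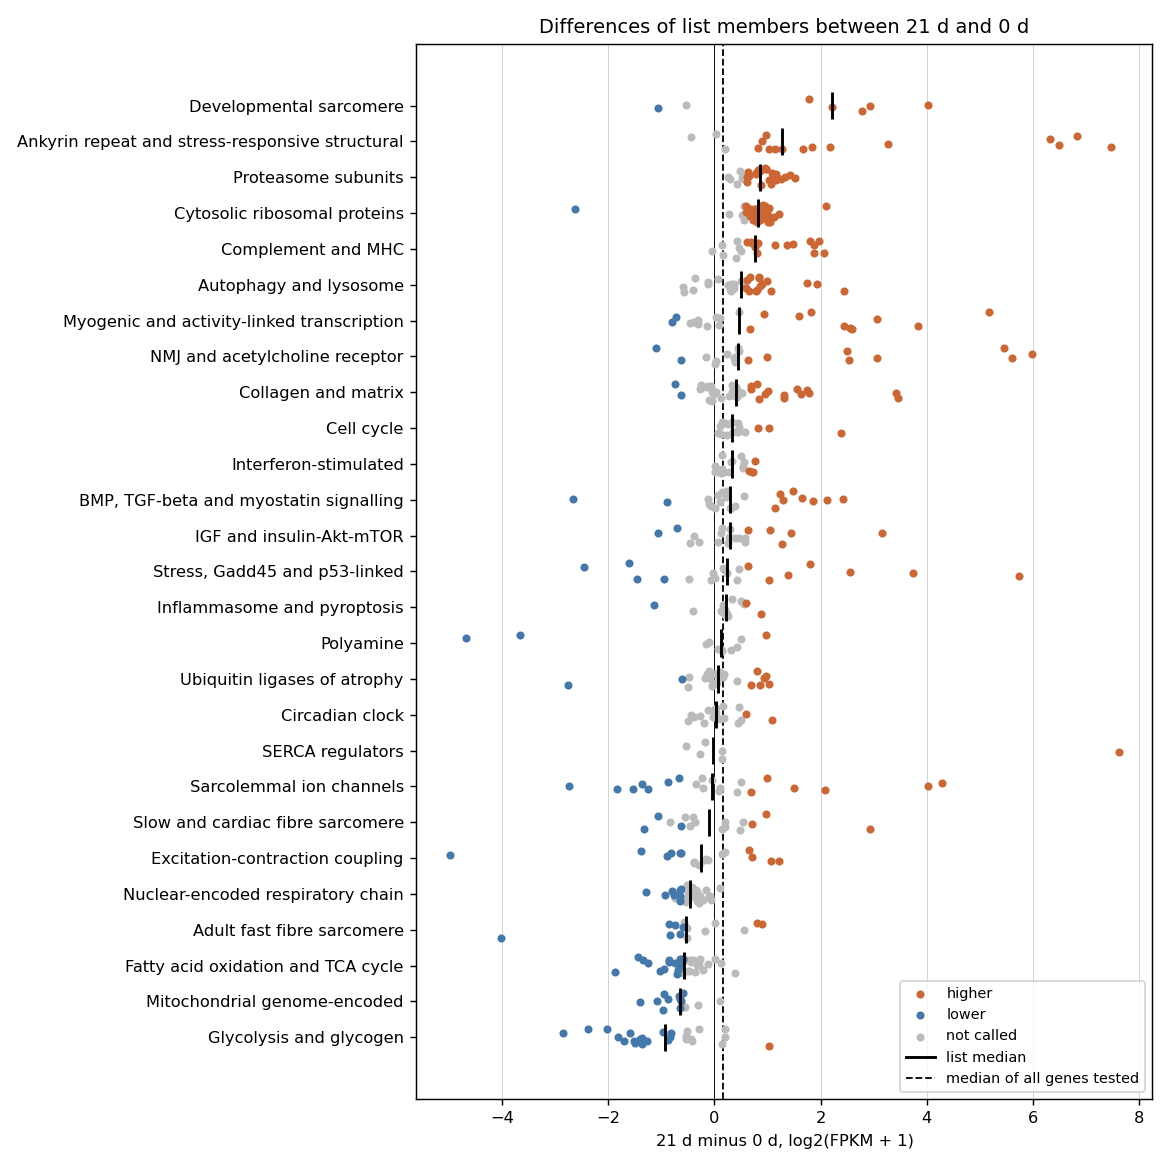
For each gene list, the log2 fold change of every tested member at 21 d against 0 d as a point and the list's median as a bar, with the median of all genes tested as a line. Proteasome and ribosomal protein genes lie to the higher side and glycolysis, fatty acid oxidation and respiratory chain genes to the lower side.

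Proteasome genes rose, and the ubiquitin ligases were mixed. All 31 proteasome subunits had 21 d samples above every 0 d sample, against 39.4% of all genes tested, and 24 were called (median 0.85). After median-ratio scaling 13 were called and the median was 0.56. Psmc1, an ATPase of the regulatory particle, had 83.3, 80.4, 79.9 and 82.5 FPKM at 0 d and 228, 233, 232 and 246 at 21 d (log2 fold change 1.51, adjusted p = 1.2e-08), and Psmb5, a catalytic subunit, rose from 29.1 to 36.6 FPKM to 80.5 to 98.3. Of 24 ubiquitin ligases of atrophy 6 rose and 2 fell, with a median of 0.07, and 3 rose and 4 fell with a median of -0.12 after median-ratio scaling. Fbxo30 rose from 5.12 to 5.95 FPKM to 11.8 to 12.4, and Asb2 fell from 169, 161, 213 and 189 FPKM to 24.6, 25.1, 26.4 and 28 (log2 fold change -2.76). The ligases best known for atrophy did not pass the criteria upward. Trim63, which encodes MuRF1, had 86.6, 76.1, 107 and 95.6 FPKM at 0 d and 59.0, 68.4, 65.0 and 66.8 at 21 d, lower without overlap (log2 fold change -0.48, and -0.78 with a call after median-ratio scaling). Fbxo32, which encodes atrogin-1, had 0.791 to 1.14 FPKM at 0 d and 0.708 to 1.12 at 21 d. The study, by contrast, reported a gradual increase of MuRF1 and Atrogin-1 in denervated GAS by Western blot and PCR, at times that include 21 d. Why these values differ from the study's was not tested.

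Most ribosomal protein genes rose as deposited, and fewer of the autophagy genes. Of 33 genes of autophagy and the lysosome 15 rose and none fell as deposited (median 0.50), while 6 rose and 4 fell after median-ratio scaling. Map1lc3a, a marker protein of the autophagosome, had 119, 114, 121 and 98.7 FPKM at 0 d and 583, 637, 641 and 614 at 21 d (log2 fold change 2.44, adjusted p = 1.0e-08). Its relative Map1lc3b had a log2 fold change of 0.28 and was not called. The lysosomal proteases Ctsl and Ctss rose by 1.75 and 1.94 on the log2 scale, and macrophages, whose 12 markers are described below, also make Ctss. Of 42 cytosolic ribosomal proteins 37 rose and 1 fell, with a median of 0.83, and 16 rose and 1 fell after median-ratio scaling (median 0.53). These genes have many processed pseudogenes, and reads may have been split. A muscle-specific exchange stood out among them: Rpl3 had 40.6, 34.9, 31.9 and 30.0 FPKM at 0 d and 140, 153, 151 and 156 at 21 d, and its muscle paralogue Rpl3l 269, 281, 276 and 229 at 0 d and 41.6, 44.4, 40.2 and 40.4 at 21 d. At 0 d Rpl3l was above Rpl3 in every sample, and at 21 d Rpl3 was above Rpl3l in every sample. The elongation factor Eef1a1 rose from 344 ± 38.6 to 1923 ± 118 FPKM (SD, n = 4).

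Growth, stress and polyamine genes held some of the widest changes. In the list of stress, Gadd45 and p53-linked genes 7 of 19 rose and 4 fell (6 and 5 after median-ratio scaling), with a median of 0.23 that was 0.10 without replicate 4 of 21 d. Leaving out any sample of 21 d gave 5 risers, with the filter still asking for 4 samples. The Gadd45 genes, which answer growth arrest and DNA damage, moved apart: Gadd45a had 2.28, 3.30, 6.28 and 3.93 FPKM at 0 d and 219, 259, 273 and 266 at 21 d (log2 fold change 5.74), whereas Gadd45b and Gadd45g fell by 1.6 and 1.45 on the log2 scale. Exons of Gadd45a overlap an antisense gene by 337 bases. Cdkn1a, the cell cycle inhibitor p21, rose from 3.20 ± 0.319 to 55.1 ± 4.13 FPKM and Chac1, of glutathione breakdown, fell from 34.5 ± 11.5 to 5.30 ± 1.03. Of 11 polyamine genes 1 rose and 2 fell, with a median of 0.13 as deposited and -0.13 after median-ratio scaling. Amd1, which supplies the aminopropyl group for spermidine and spermine, had 539, 397, 569 and 741 FPKM at 0 d and 21.3, 18.7, 20.3 and 21.6 at 21 d (log2 fold change -4.68, adjusted p = 1.8e-08). Smox, which oxidises spermine, fell by 3.67 on the log2 scale, while Odc1, at the head of the pathway, rose from 50.4 to 56.4 FPKM to 103 to 107. The pseudogenes Amd-ps3 and Amd-ps4 were among the 12 largest falls as well and share near-identical sequence with Amd1, so their values are uncertain.

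Genes of growth factor signalling changed in both directions. Of 23 genes of BMP, TGF-beta and myostatin signalling 8 rose and 2 fell, in the same numbers after median-ratio scaling, with a median of 0.29. Mstn, myostatin, the brake on muscle size, had 38, 34.7, 53.1 and 53.6 FPKM at 0 d and 5.75, 5.90, 6.02 and 6.75 at 21 d (log2 fold change -2.67), and its receptor Acvr2b fell by 0.89. Its antagonist Fst rose from 1.71 to 2.46 FPKM to 8.37 to 8.56. The ligand Gdf5, whose BMP signal limits wasting in denervated muscle, rose from at most 0.109 FPKM to between 2.50 and 3.17, and the BMP targets Id1, Id2 and Id3 rose by 1.24, 2.42 and 1.49 on the log2 scale. Of 20 genes of the IGF and insulin pathway 5 rose and 2 fell (4 and 4 after median-ratio scaling), with a median of 0.29, and 8 rose with pseudocount 0.1, with TPM and with limma-voom. H19, an imprinted noncoding RNA, rose from 69.7 to 89.2 FPKM to 647 to 800 and Mtor, the growth kinase, from 4.68 ± 0.434 to 14.4 ± 1.27, whereas the insulin receptor substrates Irs1 and Irs2 fell by 1.05 and 0.70. Igf2, the coding neighbour of H19, had 0.0550 to 0.172 FPKM at 0 d and 0.0803 to 0.209 at 21 d.

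Counts for the cell cycle genes depended on the pseudocount. Of 16 cell cycle genes 3 rose (2 after median-ratio scaling) and none fell by the limma criteria, with a median of 0.34. With pseudocount 0.1 11 rose (median 0.86), where 25.3% of all genes rose, and with limma-voom on the recovered fragments 13 (median 1.09), where 26.4% did. In 10 of the 16 the 21 d samples lay above every 0 d sample, against 39.4% of all genes tested. Rrm2, which makes deoxynucleotides, rose from 0.574 ± 0.0798 to 7.44 ± 1.87 FPKM, and Mcm6 and Pcna, of the replication fork, by 1.02 and 0.82 on the log2 scale, while Mki67, a marker of dividing cells, went from 0.233 to 0.351 FPKM to 0.452 to 0.828 without a call. Of 19 clock genes 2 rose (10.5%, beside 14.7% of all genes) and none fell as deposited (1 and 3 after median-ratio scaling), with a median of 0.03, or -0.24. With TPM 5 rose, where 27.4% of all genes rose. Per2 had 2.70, 2.35, 4.04 and 3.69 FPKM at 0 d and 7.42 to 8.60 at 21 d.

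More Schwann cell markers fell than rose. Of 14 Schwann cell markers 8 fell and 2 rose, with a median of -0.97 (9 and 2 after median-ratio scaling). The median was -0.58 and 6 fell without replicate 2 of 0 d, 6 fell without replicate 1 of 0 d, and with pseudocount 0.1 and limma-voom 9 fell with medians of -1.98 and -2.37. Their summed level was 145 to 304 FPKM at 0 d and 36.8 to 49.3 at 21 d. Prx, periaxin of the myelin sheath, had 9.15, 10.5, 5.79 and 4.79 FPKM at 0 d and 0.288, 0.397, 0.408 and 0.313 at 21 d (log2 fold change -2.61, standard error 0.19, adjusted p = 3.1e-06), and Mbp, myelin basic protein, fell by 2.73 on the log2 scale. Ngfr, the low-affinity neurotrophin receptor of Schwann cells that have lost their axon, rose from 0.584, 0.311, 0.475 and 0.256 FPKM to 7.95, 9.79, 8.93 and 6.16 (log2 fold change 2.70), and Gap43 by 0.77. Sox10, which Schwann cells express with or without an axon, had 1.09 to 1.89 FPKM at 0 d and 1.55 to 3.25 at 21 d and was not called. In 0 d replicates 1 and 2 the myelin genes were higher than in replicates 3 and 4, and every myelin gene named here was nonetheless lower in each 21 d sample than in each 0 d sample.

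Macrophage markers rose, and the genes of antigen presentation and complement with them. Of 12 macrophage markers 10 rose and none fell as deposited (9 and 1 after median-ratio scaling), with a median of 0.91 and a summed level of 159 to 229 FPKM at 0 d and 433 to 602 at 21 d. Cd68, of the macrophage lysosome, had 6.40, 5.12, 7.30 and 6.31 FPKM at 0 d and 20.7, 23.8, 18.3 and 16.6 at 21 d (log2 fold change 1.51, adjusted p = 4.4e-06), and Lyz2, lysozyme, rose from 118 ± 18.8 to 330 ± 56.7. Of 21 complement and MHC genes 14 rose and none fell by the limma criteria (8 after median-ratio scaling), with a median of 0.77. The class II genes H2-Eb1, H2-Aa and H2-Ab1 rose by 2.07, 1.98 and 1.89 on the log2 scale, H2-Eb1 from 13.3 to 20.4 FPKM to 61.4 to 90.8. The part of the macrophage markers in these rises was not tested. Of 18 interferon-stimulated genes 4 rose as deposited and none after median-ratio scaling, when limma gave no call in either direction (median 0.33 and 0.13), while limma-voom on the recovered fragments called 9. Without replicate 4 of 21 d 7 rose, and in the fit of all 32 samples 1. Isg15 was the most uneven of the 4, with 7.35, 5.25, 3.23 and 2.92 FPKM at 21 d against 1.70 to 2.80 at 0 d, and lost its call without replicate 4 of 0 d or replicate 1 or 2 of 21 d.

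Other immune and stromal markers were mixed. Of 6 neutrophil markers tested 2 rose as deposited (median 0.42), and 4 with TPM, pseudocount 0.1 or limma-voom (medians 0.79, 1.36 and 2.22). Those called as deposited were S100a8, which went from at most 0.386 FPKM to 20.5 to 34.3 (log2 fold change 4.61), and Retnlg, which rose by 1.46, while S100a9, the usual partner of S100a8, had 0.502 to 1.45 FPKM at 0 d and 0.477 to 2.01 at 21 d. Nkg7 rose among 6 lymphocyte markers, with 0.409 to 1.38 FPKM at 21 d and at most 0.220 at 0 d, but lost its call after median-ratio scaling and without replicate 3 of 0 d or replicate 1 of 21 d. The median of these 6 was 0.31. With pseudocount 0.1, TPM or limma-voom 3 of them rose (medians 1.01, 0.65 and 1.19), where 25.3%, 27.4% and 26.4% of all genes rose. No mast cell or erythroid marker was called by limma among the 6 and 5 tested, with 0 at an unadjusted p under 0.05 and 0 by limma-voom. The erythroid genes differed among replicates instead, with Hbb-bs at 240, 272, 153 and 125 FPKM at 0 d and 339, 280, 109 and 148 at 21 d. Among 12 markers of fibro-adipogenic progenitors Pi16 rose and Gsn fell (median 0.12, and -0.13 after median-ratio scaling, when Pi16 was not called, and Gsn not called without replicate 3 of 0 d or replicate 1 of 21 d), and Pdgfra, which defines these cells, had 7.59 to 9.12 FPKM at 0 d and 8.61 to 9.42 at 21 d. Scx, scleraxis, a transcription factor of tendon cells, rose from 4.85, 4.61, 3.69 and 3.70 FPKM to 42.4, 40.7, 36.5 and 41.3 (log2 fold change 2.99), while the tendon marker Tnmd had 24.8 to 52.7 and 31.8 to 45.1 and Fmod fell by 0.63, with no call without replicate 1 of 0 d.

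Endothelial markers were mostly lower at 21 d, with a median log2 fold change of -0.43 as deposited and -0.69 after median-ratio scaling. Kdr, the main receptor for VEGF, was the called member among 12 endothelial markers, from 10.5 to 12.4 FPKM to 5.02 to 6.17, but 10 of the 12 had 21 d samples below every 0 d sample against 12.1% of all genes tested, and 9 fell after median-ratio scaling. Of 10 pericyte and smooth muscle markers 2 rose and 3 fell (0 and 5 after median-ratio scaling), with a median of -0.37, and in 7 of them the 21 d samples lay below every 0 d sample. The risers were Des and Abcc9, which muscle fibres also express (Abcc9 not without replicate 1 or 2 of 0 d or replicate 3 or 4 of 21 d), and Rgs5 and Kcnj8, of pericytes, fell by 0.71 and 0.85 on the log2 scale. Cidea rose among 10 adipocyte markers, from 0.541 to 1.05 FPKM to 2.15 to 2.96, and Adipoq, which defines fat cells, had 13.9 to 35.8 and 11.9 to 22.4.

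**Figure D4:**
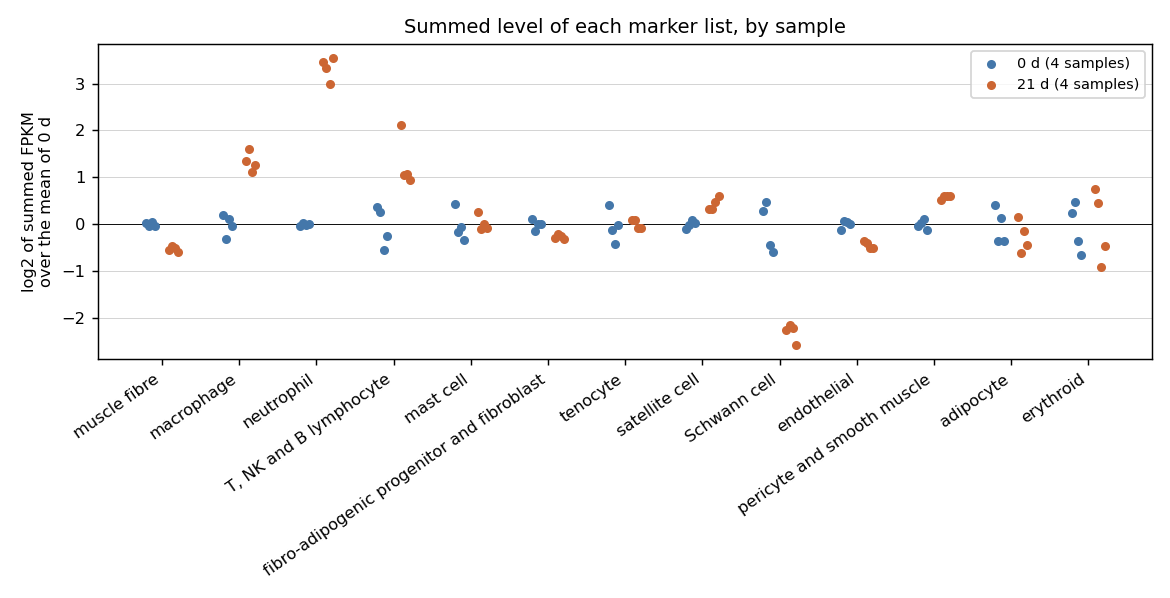
Summed FPKM of each cell type's marker list in each of the 8 samples, as log2 of its ratio to the mean of the 0 d samples. Macrophage, neutrophil, lymphocyte, satellite cell, and pericyte and smooth muscle sums are higher at 21 d without overlap. The pericyte and smooth muscle list holds Des, which muscle fibres also express. Muscle fibre, fibro-adipogenic, endothelial and Schwann cell sums are lower without overlap, and Schwann cell sums of 0 d replicates 1 and 2 lie above 3 and 4. A sum follows the most abundant members of its list.

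Matrix genes rose in part. Of 36 collagen and matrix genes 14 rose and 2 fell (10 and 2 after median-ratio scaling), with a median of 0.40. Postn, periostin of remodelling tissue, had 4.59, 3.90, 2.96 and 2.31 FPKM at 0 d and 55.1, 51.5, 33.7 and 46.2 at 21 d (log2 fold change 3.43, adjusted p = 3.7e-07), and Timp1, an inhibitor of matrix proteases, rose from 1.19 ± 0.774 to 22.2 ± 3.31. Col19a1, a minor collagen, rose from 0.117 to 0.352 FPKM to 2.31 to 4.17. The fibrillar collagens that make up most of the matrix changed less: Col3a1 had a log2 fold change of 0.69, Col1a1 of 0.52 and Col1a2 of 0.29, and of these only Col3a1 was called, a call lost after median-ratio scaling (0.39). Tgfb1, the growth factor that drives fibrosis, rose from 2.27 ± 0.432 to 13.2 ± 1.5 FPKM. Basement membrane Col4a1 and Col4a2 had log2 fold changes of -0.28 and -0.25.

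The inflammasome was the pathway the study set out to follow, and its count of changed members depended on the pseudocount. This complex of a sensor, the adaptor ASC and caspase-1 matures interleukin-1 beta and interleukin-18 and cuts gasdermin D, which opens pores in the cell. Of 14 genes tested 2 rose and 1 fell (1 and 2 after median-ratio scaling), with a median of 0.22, and the 2 that rose, 14.3%, were near the 14.7% of all genes. With pseudocount 0.1 8 rose and 1 fell (median 0.83), and limma-voom on the recovered fragments gave the same counts (median 0.97), beside 25.3% and 26.4% of all genes higher at these settings. The sensor Nlrp3 (chr11:59541568-59566956) had 0.0640, 0.0165, 0.0484 and 0.124 FPKM at 0 d and 0.340, 0.243, 0.118 and 0.184 at 21 d, so that replicate 3 of 21 d fell within the range of 0 d. Its log2 fold change was 0.20 (standard error 0.07, adjusted p = 0.031), which the pseudocount of 1 holds down at such levels, and with pseudocount 0.1 it was 0.97. Pycard, which encodes ASC, had 0.138 to 0.290 FPKM and then 0.299 to 0.484, and Il1b at most 0.103 FPKM and then 0.211, 0.0323, 0.408 and 0.457, with overlap. Casp1 rose from 0.890, 0.577, 1.25 and 0.884 FPKM to 2.11, 2.20, 1.55 and 1.59 (log2 fold change 0.59, adjusted p = 0.0022), a call lost after median-ratio scaling (0.43) and without replicate 2 of 0 d, replicate 1 of 21 d or replicate 2 of 21 d. Casp4 had a log2 fold change of 0.50, and for the substrates Gsdmd and Gsdme it was 0.32 and 0.13, the last at -0.01 after median-ratio scaling.

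The interleukin genes of the list were mostly below the criteria, and the inhibitor of interleukin-18 was above them. Il18 had 1.95, 1.88, 1.91 and 1.53 FPKM at 0 d and 2.62, 3.70, 3.02 and 3.26 at 21 d without overlap, and its log2 fold change of 0.56 stayed under 1.5-fold, though it was 0.62 with a call without replicate 1 of 21 d. Il18bp, which neutralises interleukin-18, rose from 0.645 to 0.823 FPKM to 1.69 to 2.58 (log2 fold change 0.88, adjusted p = 3.4e-05, and 0.72 with a call after median-ratio scaling). The receptors Il1r1 and Il18r1 and the antagonist Il1rn had log2 fold changes of 0.16, 0.16 and 0.20, with Il1r1 at -0.05 after median-ratio scaling. Il1rn was not called, and it passed the filter on low values through the 21 d samples alone. Nek7, a kinase that licenses Nlrp3, was lower at 21 d without overlap (18.4 to 19.7 against 23.6 to 28.9 FPKM) and was called only after median-ratio scaling (-0.40 and -0.69). Txnip, a redox protein linked to Nlrp3 and the most abundant of the list, fell from 175, 186, 171 and 167 FPKM to 84.1, 80.7, 72.6 and 78.3 (log2 fold change -1.14, adjusted p = 3.4e-07). The macrophage marker sum was higher at 21 d as well, at 159 to 229 FPKM at 0 d and 433 to 602 at 21 d, and its part in the inflammasome values was not tested.

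The remaining large changes, named by size alone, included genes of less familiar function. Aif1l, an actin-binding protein, rose from 1.96 ± 0.367 to 129 ± 23.2 FPKM. The lincRNA Gm48395 and the antisense RNA Gm47523 were at 3 fragments or fewer in each 0 d sample and rose at least 184-fold and 96.3-fold against that floor. Without a stated strand, reads of Gm47523 cannot be told from those of the gene it lies against. Among the falls, Odf3l2 had 15 to 22.7 FPKM at 0 d and was at the floor at 21 d, at least 119-fold lower, and it passed the filter through 0 d alone. Mlf1 fell from 179 ± 13.1 to 12.5 ± 1.66 FPKM, Mettl21c, a muscle methyltransferase, from 40.1 ± 3.90 to 2.35 ± 0.540, and Gm49477 from 22 ± 3.01 to 0.660 ± 0.155.

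The 21 d samples were last set against their neighbours in time, 14 d and 28 d, each with 4 samples, in a fit of all 32 samples and 22071 genes. Few genes differed: 20 were higher (0.0906% of those tested) and 80 lower (0.362%) at 21 d than at 14 d, and 9 were higher (0.0408%) and 35 lower (0.159%) than at 28 d. After median-ratio scaling 26 were higher and 47 lower than at 14 d. Of the 80 genes lower than at 14 d, 67 had a 21 d mean nearer to that of 0 d than the 14 d mean was, and 55 were still above 0 d. Rap1gap2, which switches off the GTPase Rap1, had 1.48 to 2.00 FPKM at 0 d, 19.1 to 25.2 at 14 d, 6.86, 7.69, 9.95 and 7.82 at 21 d and 7.34 to 9.68 at 28 d (21 d minus 14 d -1.36, adjusted p = 3.6e-05). Tmem100 was likewise highest at 14 d of these 4 times, with 10.9 to 13.7, 63.5 to 118, 22.2 to 27.5 and 20.9 to 28.2 FPKM (-1.68). In the gene lists, Trim63 and Asb2 of the ubiquitin ligases, Cdkn1a and Chac1 of the stress genes, Il1r1 and Col19a1 were lower at 21 d than at 14 d, and Myh1, Tnnt2, Tpi1, Eno3 and Fgf21 were higher.

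Some genes had turned up by 21 d. Tac4, which encodes tachykinin peptides, was at most 0.0536 FPKM at 0 d and 0.273 to 1.03 at 14 d, and had 2.07, 3.05, 3.06 and 2.94 at 21 d (21 d minus 14 d 1.19, adjusted p = 1.3e-05). Mthfd2, of mitochondrial one-carbon metabolism, climbed at each step, with 1.63 to 1.94 FPKM at 0 d, 3.60 to 4.25 at 14 d, 6.75 to 9.22 at 21 d and 11.7 to 15.4 at 28 d (0.77 against 14 d and -0.73 against 28 d, adjusted p = 4.0e-05 and 0.00022). Bcl6, a transcriptional repressor, had 30.8, 33.4, 37.2 and 36.7 FPKM at 21 d, above 7.97 to 11.5 at 14 d (1.78, adjusted p = 0.0024), while the 28 d samples lay at 39.8 and 44.8 in replicates 1 and 2 and at 9.90 and 11 in replicates 3 and 4.

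Slow fibre genes set 21 d apart from 28 d. Of 16 slow and cardiac sarcomere genes 5 were lower at 21 d than at 28 d and none was lower than at 14 d by the same criteria, where Tnnt2 was higher. Myh7, slow myosin heavy chain, had 28.9, 29.0, 17.7 and 13.1 FPKM at 21 d and 179, 159, 86.3 and 93.8 at 28 d, without overlap (21 d minus 28 d -2.49, standard error 0.47, adjusted p = 0.0054). At 14 d it ranged from 9.37 to 53.2 and at 0 d from 23.3 to 47.6, so that 28 d lay above the other 3 times in each sample. Replicates 1 and 2 of Myh7 lay above replicates 3 and 4 at each of these times, with 25.8 and 53.2 against 9.37 and 14.1 at 14 d. Tnnc1 was split the same way, and whether the index marks a batch was not tested. Tnnc1, Tnni1 and Tpm3, of the slow thin filament, differed by -2.46, -1.98 and -1.82, and Myh7b was the remaining member. Without replicate 1 of 28 d Tnni1 was no longer called. Kcne1l, Gsta1, Dusp26 and Padi2 were among the genes higher at 21 d than at 28 d, with Padi2 at 28.7 to 37.5 FPKM at 0 d, 9.37 to 10.7 at 14 d, 8.90 to 10.3 at 21 d and 5.2 to 6.85 at 28 d.

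**Figure D5:**
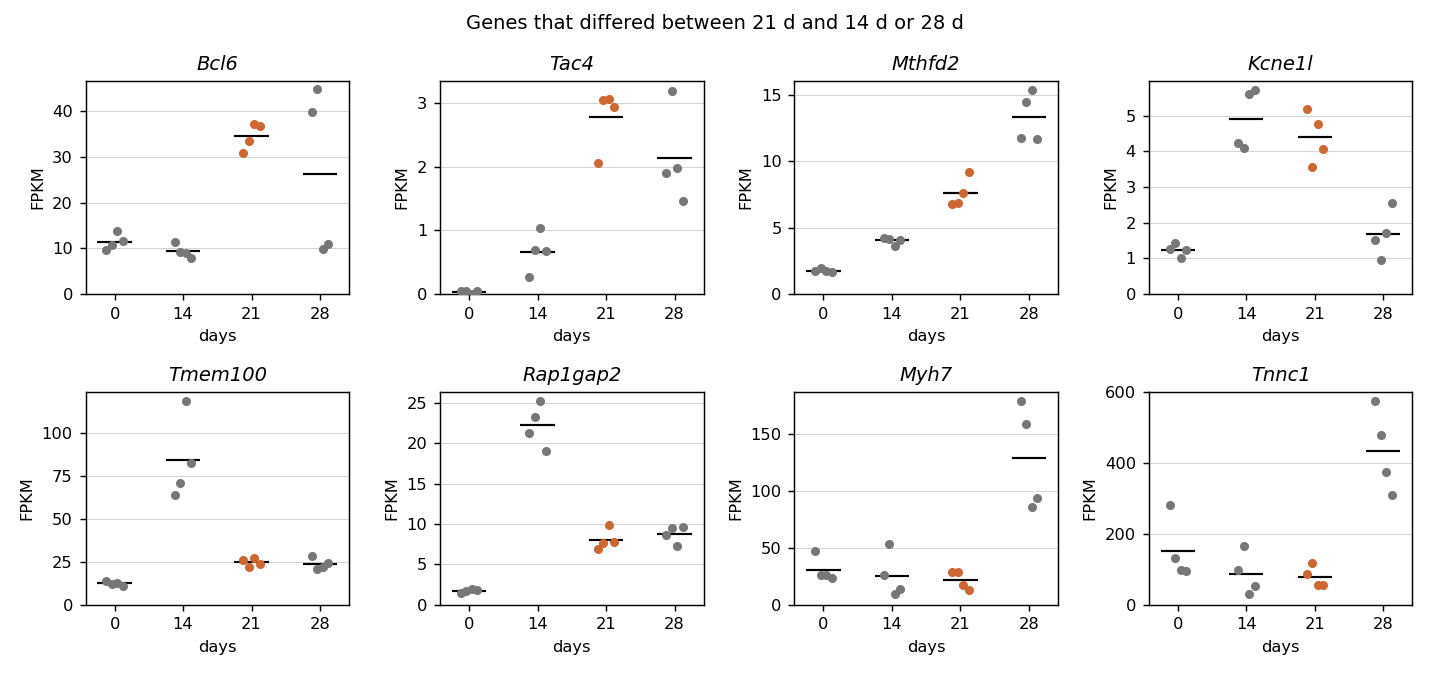
FPKM of genes that differed between 21 d and 14 d or 28 d in each sample at 0 d, 14 d, 21 d and 28 d, on a linear axis that starts at 0 for each gene, with a bar at the group mean. Rap1gap2 and Tmem100 are highest at 14 d, Mthfd2 climbs from each time to the next, and Myh7 and Tnnc1 are highest at 28 d.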

How the data were processed

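GAS muscle RNA of 8 samples, 4 at 0 d and 4 at 21 d, was compared, and 4 samples each at 14 d and 28 d were set beside them. The authors deposited 1 table of FPKM values for 33397 genes, made from paired-end Illumina reads with CASAVA, HISAT2 2.1.0, DESeq2 and GRCm38 per the submitters' processing notes, which give no roles. The strand setting was not given in the sources used here. Of the gene IDs, 33356 were matched to names and 41 were not. Columns of the table name a day and not an individual sample, except 4 columns marked C with no day, which were taken as the 0 d group because it was the single time left without columns. Dividing out gene lengths gave whole fragments for 99.3% of the values below 200 fragments (tolerance 0.02), from which depths and the floor of 3 fragments came.

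For the test limma 3.58.1 (R 4.3.3, variance trend) was applied to log2(FPKM + 1), keeping genes that reached 0.1 FPKM in 4 or more of the 8 samples. The comparisons with 14 d and 28 d used all 32 samples. A call needed 1.5-fold and p under 0.05 after Benjamini-Hochberg adjustment. On simulated data 164 of 200 genes changed 2-fold were recovered for 21 d against 0 d. Among the 18276 genes tested there, 6 unchanged ones were called. How far these counts apply to the real samples was not tested. Alternatives were other pseudocounts, filters, scalings, fits and fold thresholds, limma-voom on the recovered fragments, and leaving out each sample. Genes named were the 12 largest log2 changes in each direction without overlap, the 5 largest in FPKM, up to 3 called members of each list in each direction, the inflammasome list in full, and the 5 largest against each neighbouring time. Other list members were named for their role, with their values known. The members and lists were chosen with earlier results of these data known. Some genes are not reported here.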

Additional observations from a re-analysis of the deposited data

Results flagged for a closer look

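Among the genes named, 21 of 346 groups of 4 samples had 1 sample far from the other 3 by Dixon's criterion at 95%, and chance gives about 1 in 20, or 17.3. The samples that stood high were these. Gm24515 had 2.31 in replicate 4 of 0 d and 1.79 to 1.84 FPKM in the others, and Mlf1 had 199 in replicate 4 of 0 d and 171 to 174 FPKM in the others. Mtor had 5.33 in replicate 3 of 0 d and 4.45 to 4.47 FPKM in the others, and Myh7 had 47.6 in replicate 1 of 0 d and 23.3 to 26.1 FPKM in the others. Odf3l2 had 22.7 in replicate 2 of 0 d and 15 to 15.7 FPKM in the others, and Pycard had 0.290 in replicate 1 of 0 d and 0.138 to 0.149 FPKM in the others. Col5a3 had 6.13 in replicate 2 of 21 d and 4.45 to 4.70 FPKM in the others, and Cox7a1 had 114 in replicate 2 of 21 d and 86.1 to 88.5 FPKM in the others. Per2 had 8.60 in replicate 3 of 21 d and 7.42 to 7.55 FPKM in the others, and Tgfb1 had 15.4 in replicate 3 of 21 d and 12.3 to 12.6 FPKM in the others. mt-Nd5 had 7875 in replicate 1 of 21 d and 6619 to 6830 FPKM in the others. The samples that stood low were these. Il18 had 1.53 in replicate 4 of 0 d and 1.88 to 1.95 FPKM in the others, and mt-Co1 had 39123 in replicate 3 of 0 d and 48381 to 49759 FPKM in the others. Bin1 had 249 in replicate 1 of 21 d and 259 to 260 FPKM in the others, and Dusp26 had 7.05 in replicate 4 of 21 d and 8.70 to 8.87 FPKM in the others. Hspb8 had 1524 in replicate 1 of 21 d and 1828 to 1879 FPKM in the others, and Kdr had 5.02 in replicate 4 of 21 d and 5.98 to 6.17 FPKM in the others. Myog had 94.7 in replicate 1 of 21 d and 108 to 110 FPKM in the others, and Nek7 had 18.4 in replicate 4 of 21 d and 19.5 to 19.7 FPKM in the others. Padi2 had 8.90 in replicate 4 of 21 d and 10.2 to 10.3 FPKM in the others, and Tac4 had 2.07 in replicate 1 of 21 d and 2.94 to 3.06 FPKM in the others. Of the 21 groups 8 were at 0 d and 13 at 21 d.

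The 21 d samples differed from those of a neighbouring time by limma's test of the difference in the genes below (log2 of FPKM + 1, 21 d minus the other time). Against 14 d the differences described above were 1.78 for Bcl6, 1.19 for Tac4, 0.77 for Mthfd2, -1.68 for Tmem100 and -1.36 for Rap1gap2. Gm26917 differed by 1.24, with 27.7 to 43.6 FPKM at 21 d and 12 to 17.3 at 14 d. Gm10925 differed by 1.19, with 548 to 892 FPKM at 21 d and 242 to 391 at 14 d. Gm26109 differed by 1.18, with 4.27 to 5.74 FPKM at 21 d and 0.823 to 2.44 at 14 d. AC119982.1 differed by -1.57, with 0.300 to 1.04 FPKM at 21 d and 0.944 to 10.7 at 14 d. Gm24515 differed by -1.54, with 0 to 1.05 FPKM at 21 d and 1.06 to 5.22 at 14 d. Orm1 differed by -1.28, with 2.07 to 3.94 FPKM at 21 d and 5.36 to 12.8 at 14 d. Gm10925 is a near-identical copy of mitochondrial sequence, and reads may have been split. Gm24515 and Orm1 lost their call after median-ratio scaling. Against 28 d the differences described above were -0.73 for Mthfd2, -2.49 for Myh7, -2.46 for Tnnc1, -1.98 for Tnni1 and -1.82 for Tpm3. Gm26109 differed by 1.54, with 4.27 to 5.74 FPKM at 21 d and 0.815 to 1.73 at 28 d. Kcne1l differed by 1.03, with 3.55 to 5.17 FPKM at 21 d and 0.964 to 2.55 at 28 d. Gsta1 differed by 0.87, with 1.89 to 2.22 FPKM at 21 d and 0.311 to 0.895 at 28 d. Dusp26 differed by 0.80, with 7.05 to 8.87 FPKM at 21 d and 4.06 to 5.09 at 28 d. Padi2 differed by 0.68, with 8.90 to 10.3 FPKM at 21 d and 5.2 to 6.85 at 28 d. Tceal6 differed by -1.63, with 0.112 to 1.07 FPKM at 21 d and 1.95 to 5.83 at 28 d.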

How the results depend on the processing

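The counts of changed genes depended on the scaling and the thresholds. For 21 d against 0 d, 3507 genes were called as deposited (2632 higher, 875 lower). Pseudocount 0.1 gave 5916 (4528 and 1388), rescaling to TPM 5828 (4894 and 934), and limma-voom on recovered fragments 6168 (4716 and 1452). Median-ratio scaling gave 1386 higher and 1515 lower, and quantile normalization 1486 and 1426. Without a fold threshold 9898 passed (7548 and 2350), and at 2-fold 1206 (810 and 396). Leaving out 1 sample gave 3366 to 3571 calls (2507 to 2715 higher, 825 to 882 lower). For 21 d against 14 d, 100 genes were called (20 and 80). TPM gave 180 (153 lower), limma-voom 158 (38 higher), median-ratio scaling 47 lower, quantile normalization 31 higher, no fold threshold 355 (72 and 283) and 2-fold 20 (6 and 14). Leaving out 1 sample gave 71 to 111 calls (16 to 31 higher, 55 to 89 lower), with 31 higher without replicate 1 of 14 d. For 21 d against 28 d, 44 genes were called (9 and 35). TPM gave 53 lower, array weights 14 higher, a fit of these times alone 30 calls (22 lower), no fold threshold 105 (24 and 81) and 2-fold 14 (2 and 12). Leaving out 1 sample gave 29 to 51 calls (5 to 10 higher, 23 to 44 lower), with the lowest counts without replicate 1 of 28 d (29 calls, 23 lower) and without replicate 2 of 28 d (5 higher). Genes higher at 21 d made up 20 of the 100 calls against 14 d as deposited and 35.6% after median-ratio scaling. The median of the mitochondrially encoded list without mitochondrial genes, and those of the photoreceptor and lymphocyte lists at an FPKM of at least 1, had no gene left and could not be computed. Of the named genes, Il1r1 turned to -0.054 and Gsdme to -0.014 after median-ratio scaling, and under quantile normalization Il1r1 stood at -0.065, Gsdme at -0.032, Tnnt3 at 0.00 and mt-Nd5 at 0.13. Apart from the scalings' own construction and the changed thresholds, the cause was not tested. The columns carry an index within each time (1 to 4, a to d), which the labels tie to no sample or animal. Deviations of samples with the same index from their group means correlated at -0.03 to 0.07 between 21 d and 0 d. Samples of different index correlated at -0.08 to 0.03 there. With the same index the range was -0.05 to 0.05 against 14 d and -0.06 to 0.02 against 28 d. With different indices it was -0.07 to 0.09 and -0.08 to 0.09. Of the 4 samples of 21 d, 3, 1 and 0 correlated best with their own index. Whether the index marks a shared batch or animal was not tested. A replicate block on this index, added after the data were seen, gave 3516 calls against 0 d (2635 higher, 881 lower), 100 against 14 d and 44 against 28 d. The pseudocount of 1 and the depth limit what can be said of genes below about 1 FPKM.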

Other observations

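Immunoglobulin genes set 1 sample apart. The 150 immunoglobulin genes in the table summed to 39.8 to 64.8 FPKM at 0 d and to 190, 58.0, 71.3 and 70.5 at 21 d. Replicate 1 of 21 d alone held high levels of the light chain constant gene Igkc, at 27.2 FPKM, and of the variable genes Igkv14-126, at 41.1, and Ighv11-2, at 24.7. The heavy chain constant gene Ighg2c, by contrast, was higher in all 4 samples of 21 d, at 19.5, 22.1, 27.0 and 32.2 FPKM, than at 0 d, where it ranged from 0.930 to 1.66. Ighm, another heavy chain constant gene, did not rise in this way. It had 32.3, 24.5, 52.3 and 51.7 FPKM at 0 d and 43.8, 19.6, 23.4 and 21.5 at 21 d, with overlap.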
